A study of Mus musculus with 42 samples.

Results

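The genes described here are the simple epithelial keratins Krt7, Krt8, Krt18, Krt19 and Krt42, 5 of the 20972 gene symbols that had a probe on the array. A probe was taken for a member when its RefSeq accession belonged to that gene, and each of the 5 had 1 probe. The study followed mouse embryonic stem cells (mESCs) of a dual reporter line, with GFP knocked into the Gsc locus and RedStar into the Hhex locus, as a monolayer was taken towards anterior definitive endoderm (ADE), and measured total RNA on Agilent one-colour arrays. The untreated series had 33 arrays in 11 populations of 3: ESC, which are undifferentiated mESCs; unsorted day 2 (d2) cells; and the populations sorted by FACS as G- and G+ on d3 and d4, G-, Glow and Ghigh on d5, and G+H- and G+H+ on d6, where G is the Gsc reporter and H the Hhex reporter. The other 9 arrays were d6 cultures of 3 regimens, 3 arrays each. Control cells had DMSO throughout, ADE_EPZ cells had DMSO as mESCs and 2.5 uM EPZ6438, an inhibitor of the H3K27 methyltransferase EZH2, while they differentiated, and ES_EPZ cells had EPZ6438 as mESCs and DMSO afterwards. The study's methods give 1 dual reporter line for this course, so the values cannot show how another line would behave. The labels of the 3 regimens name no sort. The 3 samples of a group were separate experiments.

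Keratins are the intermediate filament proteins of epithelial cells. A filament is built from pairs of an acidic type I chain and a basic type II chain, so that neither kind makes a filament by itself. Krt7 and Krt8 are type II chains, and Krt18, Krt19 and Krt42 are type I chains. Krt8 and Krt18 are the first keratins of the embryo and the standard pair of single-layered epithelia, among them trophectoderm and endoderm. Krt19 and Krt7 are added in ductal and glandular epithelia and in trophoblast, and Krt42 is known from nail epithelium. Keratin genes lie in a type II cluster and a type I cluster, with the exception of Krt18, whose gene lies next to Krt8 at the edge of the type II cluster. By the RefSeq gene table for GRCm38.p6, Krt7 lay on chromosome 15 between Krt80 and Krt87, Krt8 and Krt18 were direct neighbours on chromosome 15, Krt19 lay on chromosome 11 between Krt15 and Krt9, and Krt42 lay on chromosome 11 between Krt17 and Eif1.

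The promoters are shown because the members fell into pairs that moved together, and a reader can set the sequence in front of each start beside those patterns. The RefSeq promoter table, of build GRCm38.p6, held 4 of the 5 members and not Krt19. Each sequence runs from 250 bases before the annotated start to 50 bases after it and is written 5′ to 3′ on the gene's own strand. Capitals mark matches, on either strand, to the letters of 6 motifs. They are the TATA box with the letters TATAAA, the GC box with GGGCGG, a site of the AP-1 factors with TGAGTCA, a site of the forkhead factors with TGTTTAC, a site of the GATA factors with AGATAA, and a site of the AP-2 factors with GCCNNNGGC. The Krt7 sequence is chr15:101412153-101412452 on the plus strand, the Krt8 sequence is chr15:102004293-102004592 on the minus strand, the Krt18 sequence is chr15:102027966-102028265 on the plus strand and the Krt42 sequence is chr11:100269902-100270201 on the minus strand.
Krt7: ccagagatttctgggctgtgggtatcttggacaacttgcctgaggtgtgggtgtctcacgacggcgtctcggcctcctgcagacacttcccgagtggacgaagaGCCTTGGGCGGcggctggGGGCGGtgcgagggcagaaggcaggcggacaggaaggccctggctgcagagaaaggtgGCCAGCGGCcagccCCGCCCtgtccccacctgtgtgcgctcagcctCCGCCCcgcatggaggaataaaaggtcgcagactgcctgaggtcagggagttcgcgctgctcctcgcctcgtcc
Krt8: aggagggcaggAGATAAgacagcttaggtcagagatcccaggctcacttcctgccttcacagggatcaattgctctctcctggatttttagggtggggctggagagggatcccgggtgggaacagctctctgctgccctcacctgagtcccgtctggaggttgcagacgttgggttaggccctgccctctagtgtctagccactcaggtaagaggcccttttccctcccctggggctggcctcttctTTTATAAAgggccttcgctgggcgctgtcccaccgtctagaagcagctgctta
Krt18: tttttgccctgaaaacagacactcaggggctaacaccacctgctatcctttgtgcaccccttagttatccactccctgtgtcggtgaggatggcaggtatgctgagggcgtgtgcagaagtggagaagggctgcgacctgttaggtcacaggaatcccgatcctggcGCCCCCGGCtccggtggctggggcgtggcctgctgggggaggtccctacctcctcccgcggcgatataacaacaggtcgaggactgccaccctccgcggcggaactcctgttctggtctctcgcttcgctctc
Krt42: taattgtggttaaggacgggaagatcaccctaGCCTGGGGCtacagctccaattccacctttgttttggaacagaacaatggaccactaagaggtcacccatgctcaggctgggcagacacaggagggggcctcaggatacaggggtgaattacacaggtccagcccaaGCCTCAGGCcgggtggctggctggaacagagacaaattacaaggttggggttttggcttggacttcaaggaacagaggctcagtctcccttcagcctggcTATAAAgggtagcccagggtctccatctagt

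The Krt7 promoter held 21 CpG pairs with an observed over expected ratio of 0.641, which is at percentile 66.9 of the 32841 promoters of this length. Krt18 was similar, with 17 CpG pairs and a ratio of 0.603. Krt8 held 6 CpG pairs (ratio 0.238) and Krt42 held 2 (ratio 0.0924, percentile 12.3), against a median ratio of 0.384 over all promoters. The neighbours Krt8 and Krt18 were at percentiles 34.1 and 64.4. GC boxes were found 4 times in the Krt7 sequence and in no other of the 4, and 35.7% of all promoters held at least 1. TATAAA was found in the Krt8 sequence, where matches on both strands overlap at the annotated start, and in the Krt42 sequence at base 20 after the start, against 13.6% of all promoters. AP-2 letters were found in the Krt7, Krt18 and Krt42 sequences (16.6% of all promoters), 1 of the Krt7 matches overlapping a GC box, and GATA letters were found in the Krt8 sequence (11.2%). The AP-1 letters, held by 5.2% of promoters, and the forkhead letters, held by 3.65%, were not in these windows. A match is a run of letters and not a measured binding site.

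All 5 probes were well above background on all 42 arrays and 0 of their spots were saturated, so that each fold below is measured on both sides. The Krt7 probe had a median foreground of 84 to 3503.5 over the arrays, against a local background of 21 to 45. Values are log2 intensities after the authors' background correction and quantile normalisation, and differences are log2 fold changes from a limma fit over all arrays with their standard error (SE). A gene was called changed where the limma adjusted p was 0.01 or lower and the log2 fold change was 1.5 or more in size, the thresholds of the study. In sorted or bulk RNA, fewer cells that express a gene and less RNA per cell cannot be told apart. Levels of different probes are not comparable with each other. Arrays had 24459 to 40398 probes well above background.

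Replicates 1 and 2 of the untreated groups were hybridised on 3 slides and replicate 3 on 2 others, and replicate 3 stood apart for these genes. In ESC, in d3 G- and in d3 G+, replicate 3 was the lowest of the 3 for each of the 5 members, and in d5 Ghigh it was the highest for each of the 5. In d5 Ghigh the epithelial cadherin gene Cdh1 was also highest in replicate 3, at 12.24 against 10.30 and 10.73. Called differences of the 5 members are therefore given within the slides of replicates 1 and 2 and for replicate 3 as well, and so are those of other genes named with values where the 2 values were more than 1 log2 unit apart. The part of the slides in these values was not tested.

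Krt8 and Krt18 fell between ESC and d2, rose from d2 to d3 and were above ESC on d6. Krt18 was at 15.29, 15.95 and 13.83 log2 units in ESC replicates 1, 2 and 3, at 13.15, 11.53 and 12.55 in d2, and at 17.10, 16.85 and 17.01 in d6 G+H-. The d6 G+H+ arrays had 17.19, 17.11 and 17.01. The d2 arrays lay below all ESC arrays, and the d6 arrays lay above all of them. Krt18 was 6.13-fold lower in d2 than in ESC, with a log2 fold change of -2.62 ± 0.36 (SE, limma adjusted p = 7.29e-06). It was 3.90-fold higher in d6 G+H- than in ESC (log2 fold change 1.96 ± 0.36, limma adjusted p = 6.54e-05) and 4.23-fold higher in d6 G+H+ (2.08 ± 0.36, limma adjusted p = 2.46e-05).

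Krt8, the type II partner, was at 12.80, 13.58 and 11.13 in ESC, 10.995, 8.99 and 10.33 in d2 and 15.33, 15.32 and 14.58 in d6 G+H-. The d6 G+H+ arrays had 15.33, 15.37 and 14.64. As for Krt18, neither the d2 nor the d6 arrays overlapped ESC. The log2 fold change was -2.40 ± 0.44 in d2 (5.27-fold lower, limma adjusted p = 0.000383), 2.58 ± 0.44 in d6 G+H- (5.97-fold higher, limma adjusted p = 1.81e-05) and 2.61 ± 0.44 in d6 G+H+ (6.11-fold higher, limma adjusted p = 1.3e-05). Between d3 and d5 the pair had intermediate levels. Relative to ESC, Krt8 stood at 0.28 in d3 G-, 0.83 in d3 G+, 0.87 in d4 G-, 1.297 in d4 G+, 0.97 in d5 G-, 1.53 in d5 Glow and 1.87 in d5 Ghigh on the log2 scale. Only the last of these 7 was called (limma adjusted p = 0.00153), and it was not called without ESC replicate 3 (1.19, limma adjusted p = 0.0476) or without d5 Ghigh replicate 3 (1.61, limma adjusted p = 0.0159). It was 0.93 within replicates 1 and 2 and 3.76 in replicate 3. Krt8 in d5 Glow missed the call at a limma adjusted p of 0.0104 and passed it at 0.00984 with slide as a random block. Krt18 stood at 1.16 in d5 Glow and 1.21 in d5 Ghigh, with limma adjusted p of 0.0209 and 0.0141. Without ESC replicate 2, which was the highest ESC array of both genes, Krt8 was called in d4 G+ (1.83, limma adjusted p = 0.00285) and d5 Glow (2.07, limma adjusted p = 0.000817), and Krt18 in d5 Glow (1.62, limma adjusted p = 0.00137) and d5 Ghigh (1.68, limma adjusted p = 0.0009).

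The size of these differences varied between the sets of slides and with single arrays of either group. Within replicates 1 and 2, Krt18 in d6 G+H+ was 1.53 above ESC and in replicate 3 it was 3.19 above, and Krt8 was 2.16 and 3.51 above. Without ESC replicate 3 the Krt18 difference in d6 G+H+ was 1.48 (limma adjusted p = 0.00102), just under the fold threshold, and in d6 G+H- it was 1.36 (limma adjusted p = 0.00271). The Krt18 call in d6 G+H- was also lost when ESC and d6 G+H- alone were fitted (1.96, limma adjusted p = 0.0147). For d6 G+H- the values within replicates 1 and 2 and in replicate 3 were 1.35 and 3.18 for Krt18, and 2.14 and 3.45 for Krt8. Krt8 kept its call in the d6 populations whichever of the 6 arrays of the comparison was left out. From ESC to d2 the log2 fold change of Krt18 was -3.28 within replicates 1 and 2 and -1.28 in replicate 3, and that of Krt8 was -3.19 and -0.80. Without d2 replicate 2 the Krt8 value was -1.84 and just missed the call, with a limma adjusted p just above the threshold that rounds to 0.01.

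**Figure D1:**
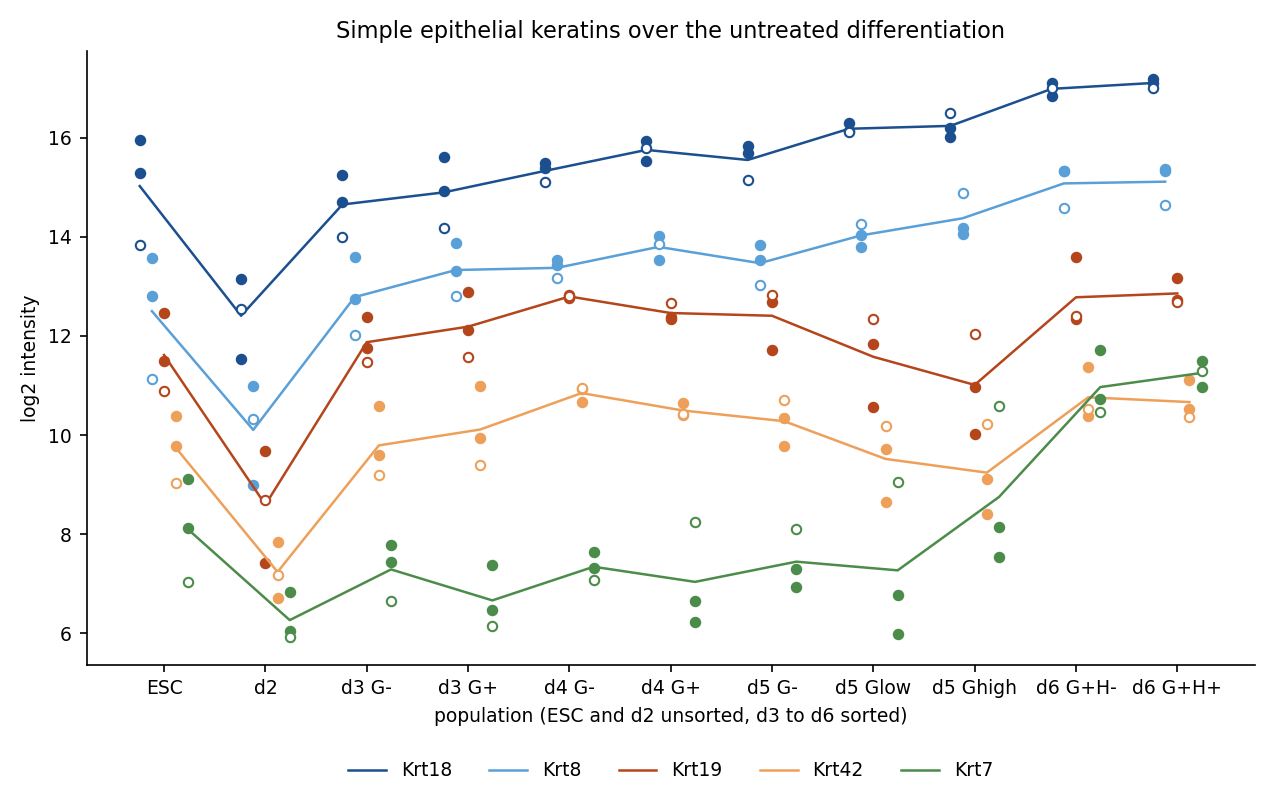
Log2 intensity of the 5 keratins on each array of the 11 untreated populations, with lines through the group means; filled points are replicates 1 and 2 and open points replicate 3, which was on other slides. All 5 lines have their lowest point at d2, Krt8 and Krt18 are highest on d6, Krt19 and Krt42 have lower means in d5 Glow and Ghigh than in d4 G+, and Krt7 stays between 5.98 and 10.58 from d3 to d5 and reaches 10.47 to 11.71 on d6; heights of different genes are not comparable.

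Krt19 and Krt42, the other type I chains, shared the fall at d2 and then took a different course. Krt19 was at 11.49, 12.47 and 10.89 in ESC, 9.67, 7.42 and 8.70 in d2, 12.38, 11.76 and 11.48 in d3 G- and 12.88, 12.11 and 11.57 in d3 G+. The d2 arrays were below every array of the other 3 groups. The log2 fold change from ESC to d2 was -3.02 ± 0.49 (8.11-fold lower, limma adjusted p = 7.22e-05), and it was called in every fit that left out 1 array. Krt42 was at 9.78, 10.40 and 9.02 in ESC and 7.84, 6.71 and 7.17 in d2, a log2 fold change of -2.49 ± 0.44 (5.64-fold lower, limma adjusted p = 0.000218). The log2 fold change was -3.43 for Krt19 and -2.81 for Krt42 within replicates 1 and 2, and -2.19 and -1.85 in replicate 3.

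In the Gsc-positive cells the values of Krt19 and Krt42 were lower on d5 than on d4 and d6, without a call. Krt19 was at 12.39, 12.34 and 12.66 in d4 G+, 10.56, 11.84 and 12.34 in d5 Glow, 10.03, 10.98 and 12.03 in d5 Ghigh and 13.59, 12.34 and 12.41 in d6 G+H-. Krt42 was at 10.65, 10.40 and 10.44 in d4 G+, 8.65, 9.73 and 10.18 in d5 Glow, 8.40, 9.11 and 10.22 in d5 Ghigh and 11.37, 10.39 and 10.53 in d6 G+H-. Every d5 Glow and d5 Ghigh array was below every d4 G+ array for both genes, and every d6 G+H- array was above every d5 Ghigh array. From d4 G+ to d5 Ghigh the log2 fold change was -1.45 ± 0.49 for Krt19 (limma adjusted p = 0.0997) and -1.25 ± 0.44 for Krt42 (limma adjusted p = 0.115), and from d5 Ghigh to d6 G+H- it was 1.77 ± 0.49 (limma adjusted p = 0.0213) and 1.52 ± 0.44 (limma adjusted p = 0.0281). The later step was 2.46 for Krt19 within replicates 1 and 2 and 0.38 in replicate 3, and 2.12 and 0.31 for Krt42. Of the 5 members limma called 0 in d5 Ghigh against d4 G+ (0.548% of all probes in either direction; 3 members at an unadjusted p under 0.05) and 0 in d5 Glow against d4 G+ (0.0593%; 1 member). Without d5 Ghigh replicate 3 the step from d5 Ghigh to d6 G+H- was called for Krt19 (2.28, limma adjusted p = 0.00339), for Krt42 (2.01, limma adjusted p = 0.00352) and for Krt7 (3.13, limma adjusted p = 0.000768).

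Against ESC, Krt19 and Krt42 were not called in any sorted population. Their largest differences were on d4 G- and d6: Krt19 was 1.18 higher in d4 G- (95% interval 0.19 to 2.17, limma adjusted p = 0.149) and 1.24 higher in d6 G+H+ (0.25 to 2.24, limma adjusted p = 0.0621), and Krt42 was 1.11 higher in d4 G- (0.22 to 2.00, limma adjusted p = 0.119) and 1.03 higher in d6 G+H- (0.14 to 1.92, limma adjusted p = 0.0948). These intervals leave room for a rise of up to about the size seen for Krt8 and Krt18. The d6 difference between the pairs was not tested.

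Krt7 was called higher than ESC in the d6 populations and in none of the others. It was at 8.12, 9.11 and 7.04 in ESC, 6.83, 6.04 and 5.93 in d2, 6.94, 7.30 and 8.10 in d5 G-, 5.98, 6.77 and 9.06 in d5 Glow and 7.54, 8.14 and 10.58 in d5 Ghigh. On d6 it was at 11.71, 10.72 and 10.47 in G+H- and 11.49, 10.97 and 11.30 in G+H+. The d6 arrays were above all ESC arrays, and in each d5 population replicate 3 was the highest array. Krt7 was 7.35-fold higher in d6 G+H- than in ESC (log2 fold change 2.88 ± 0.63, limma adjusted p = 0.000549) and 8.96-fold higher in d6 G+H+ (3.16 ± 0.63, limma adjusted p = 0.000151). Without ESC replicate 3 the first of these was 2.35 with a limma adjusted p of 0.0109, and the second kept its call whichever array was left out. Within replicates 1 and 2 the d6 G+H+ difference was 2.61 and the d6 G+H- difference 2.60, and in replicate 3 they were 4.26 and 3.43. From d5 Ghigh to d6 G+H- the difference was 2.22 ± 0.63 and not called (limma adjusted p = 0.0256), being 3.38 within replicates 1 and 2 and -0.10 in replicate 3. The Krt7 difference of d2 from ESC was -1.82 ± 0.63, with all d2 arrays below all ESC arrays, and was not called (limma adjusted p = 0.0828).

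By comparison, 4 of the 5 members were called lower in d2 than in ESC, where 0.709% of all probes were called lower. In d3 G- 4 of the 5 were called higher than in d2, where 0.481% of all probes were, and in d3 G+ the same 4 (Krt8, Krt18, Krt19 and Krt42) were, where 1.51% of all probes were. The largest of these rises was that of Krt19, 9.70-fold in d3 G- (log2 fold change 3.28 ± 0.49, limma adjusted p = 3.71e-05) and 12.1-fold in d3 G+ (3.59 ± 0.49, limma adjusted p = 1.08e-06). For Krt19 the rise to d3 G+ was 3.95 within replicates 1 and 2 and 2.87 in replicate 3, and over the 4 genes and both d3 populations these values were 2.64 to 3.95 and 1.45 to 2.87. The 2 d3 comparisons share the d2 arrays. Fitted on the compared groups alone, with 6 arrays, none of the 4 was called in d2 against ESC (limma adjusted p 0.0104 to 0.0958) or in d3 G- against d2 (0.016 to 0.0405). Since d2 cells were not sorted and d3 cells were, day and sort cannot be told apart in them, while ESC and d2 were both unsorted. Against ESC, 3 of the 5 were called higher in d6 G+H- (2.8% of all probes) and the same 3, Krt7, Krt8 and Krt18, in d6 G+H+ (3.22%), 1 in d5 Ghigh (1.94%), and 0 in d3 G-, d3 G+, d4 G-, d4 G+, d5 G- and d5 Glow, where limma called 0.533%, 1.49%, 0.695%, 1.61%, 1.06% and 1.87% of all probes higher. At an unadjusted p under 0.05 the limma fit had 0, 1, 2, 1, 1 and 2 members in those 6 populations. All 10 comparisons with ESC share its 3 arrays.

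**Figure D2:**
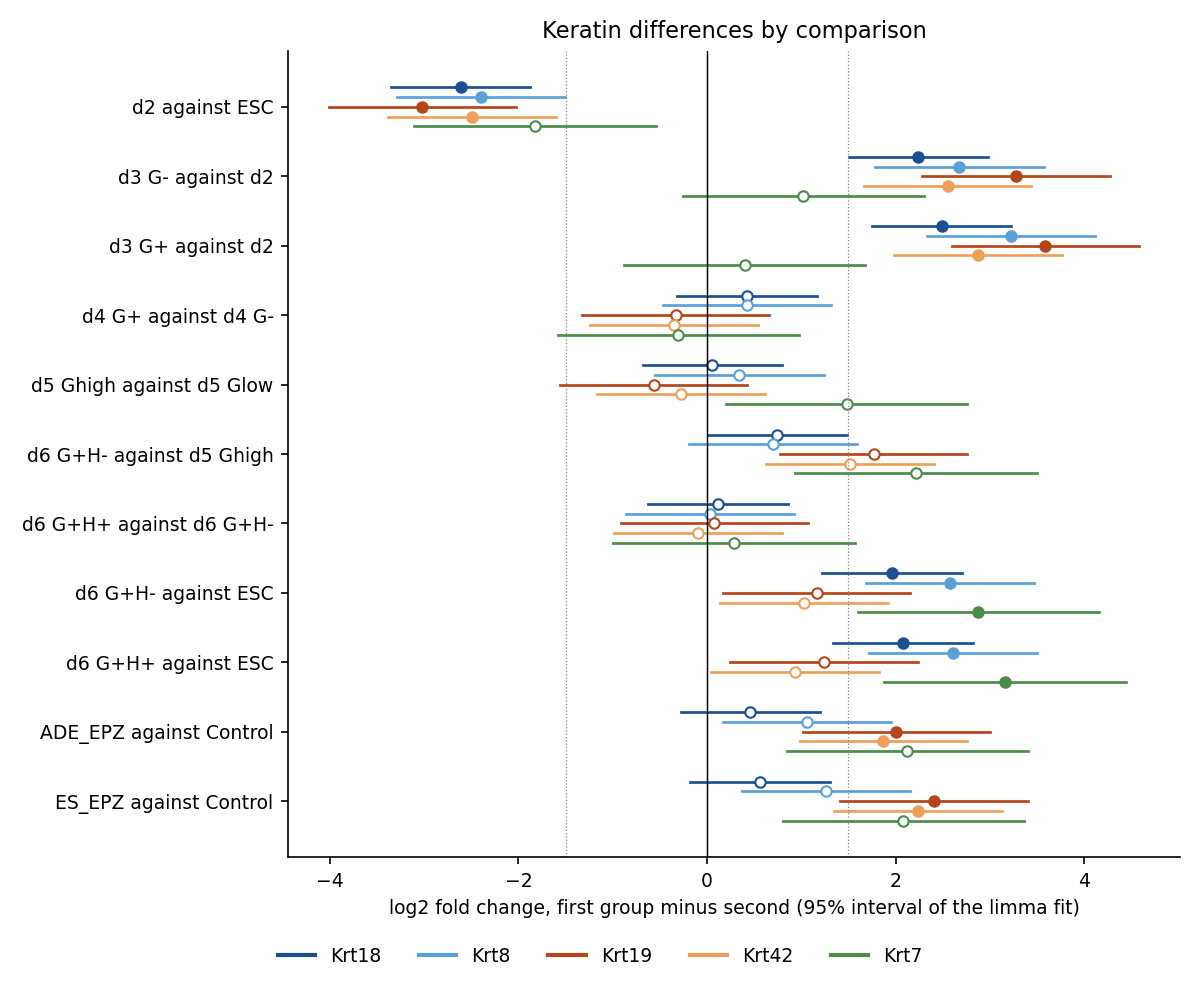
Log2 fold change of each keratin in 11 comparisons, first group minus second, with its 95% interval from the limma fit; filled points were called and open points were not, and dotted lines mark the fold threshold of 1.5. The d2 row lies to the left of 0 for all 5 genes. The d3 against d2 rows lie to the right, except that both Krt7 intervals include 0. The rows for d4 G+ against d4 G- and d6 G+H+ against d6 G+H- hold intervals that all include 0.

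None of the 5 members was called in a sort for the Gsc reporter or for the Hhex reporter. In d3 G+ against d3 G- limma called 0 of the 5 members (0.984% of all probes were called in either direction), with 0 at an unadjusted p under 0.05. In d4 G+ against d4 G- it called 0 (1.13% of all probes), again with 0 at an unadjusted p under 0.05, although the arrays did not overlap for 3 members. Krt18 was 0.42 higher in d4 G+ (95% interval -0.32 to 1.16), the difference was -0.33 for Krt19 (-1.33 to 0.66) and -0.35 for Krt42 (-1.24 to 0.54). The test of whether the d4 sort difference was unlike that of d3 called 0 of the 5 and 0% of all probes, with 0 of the 5 at an unadjusted p under 0.05. The same test of d5 (Ghigh to G-) against d3, added after the data were seen, called 0 of the 5 (0.287% of all probes) with 3 at an unadjusted p under 0.05: Krt7 at 1.93 ± 0.89 (limma adjusted p = 0.477), Krt19 at -1.71 ± 0.69 (limma adjusted p = 0.366) and Krt42 at -1.36 ± 0.62 (limma adjusted p = 0.466).

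On d5 the values of the 2 keratin pairs differed from G- with opposite signs, and none was called. Krt19 was at 11.72, 12.68 and 12.83 in d5 G-, and the mean of Glow and Ghigh minus it was -1.11 log2 units (95% interval -1.97 to -0.25, limma adjusted p = 0.17). For Krt42 this was -0.90 (-1.67 to -0.13, limma adjusted p = 0.247). Krt18 was at 15.83, 15.68 and 15.14 in d5 G- and 0.66 higher in the mean of Glow and Ghigh (0.02 to 1.3002, limma adjusted p = 0.361), and Krt8 was 0.73 higher (-0.04 to 1.51, limma adjusted p = 0.429). Limma called 0 of the 5 (0.821% of all probes in either direction), with 3 at an unadjusted p under 0.05. Within d5, Ghigh against Glow gave 0 calls (0.122% of all probes) and 1 member at an unadjusted p under 0.05, Krt7, which was 1.48 ± 0.63 higher in Ghigh (limma adjusted p = 0.438), 1.46 within replicates 1 and 2 and 1.52 in replicate 3. In d6 G+H- against d5 Ghigh limma called 0 of the 5 (1.13% of all probes), with 4 at an unadjusted p under 0.05. In d6 G+H+ against d6 G+H- it called 0 of the 5 and 0% of all probes, with 0 of the 5 at an unadjusted p under 0.05, and the intervals ran from -0.86 to 0.93 for Krt8, from -0.62 to 0.86 for Krt18 and from -0.996 to 1.57 for Krt7.

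Each member was at its lowest in d2, and for Krt8, Krt18, Krt19 and Krt42 no d2 array reached any array of the next group in the order of means. In the 11 untreated populations the means spanned 5.01 log2 units for Krt8, 4.99 for Krt7, 4.70 for Krt18 and 4.26 for Krt19, all from d2 to d6 G+H+, and 3.61 for Krt42, from d2 to d4 G-. Above d2 the groups next to each other in the order of Krt8, Krt19 and Krt42 all had arrays that overlapped. For Krt18, gaps were left between d4 G+ and d5 Glow and between Control and ADE_EPZ, and for Krt7 between ADE_EPZ and d6 G+H-, the last 2 with the separate slides of the EPZ6438 series on one side or both.

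Krt8 with Krt18, and Krt19 with Krt42, followed each other closely. Over the 11 untreated means the correlation was 0.985 for Krt8 with Krt18 and 0.995 for Krt19 with Krt42, and between members of different pairs it was 0.758 to 0.792. Deviations of the 42 arrays from their group means, which leave out the differences between groups, were correlated at 0.926 and 0.936 for the same pairs. Krt7 had correlations of 0.456 to 0.759 with the other members over the means, and in deviations it was closer to Krt19 (0.791) and Krt42 (0.773) than to Krt8 (0.519) and Krt18 (0.450). These are descriptions: the points share arrays, slides and one normalisation. Whether the Krt19 and Krt42 probes also take up each other's RNA was not tested.

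**Figure D3:**
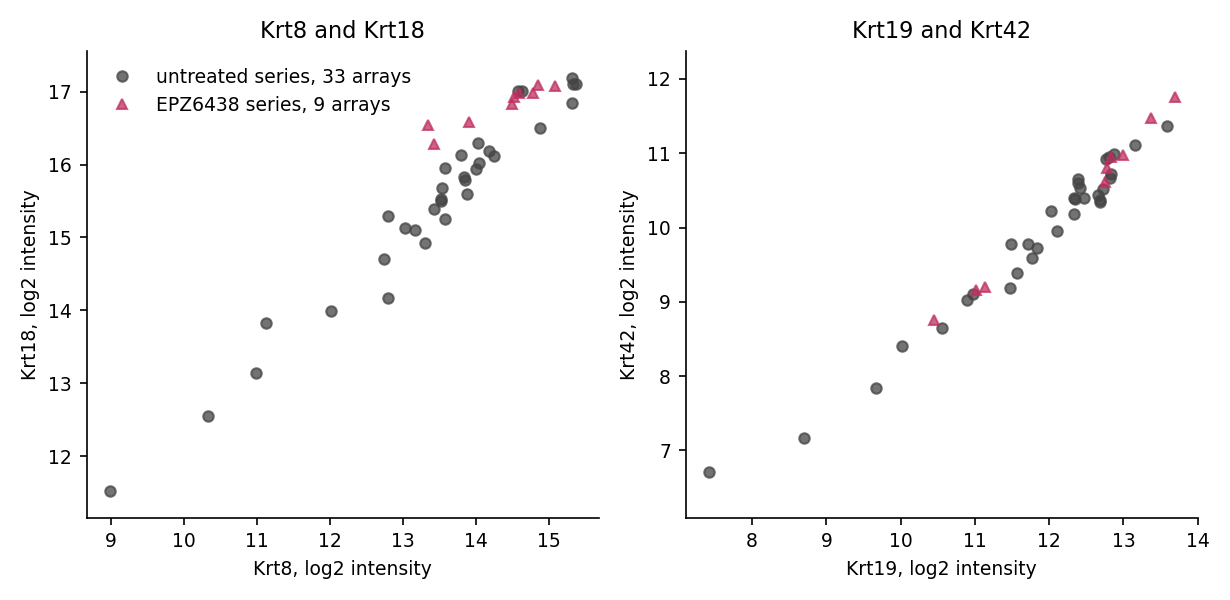
Log2 intensity of Krt18 against Krt8 (left) and of Krt42 against Krt19 (right) on all 42 arrays; circles are the 33 untreated arrays and triangles the 9 arrays of the EPZ6438 series. Both clouds are narrow, with correlations of 0.962 and 0.984 over the 42 arrays, and the lowest points on each plot are d2 arrays.

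Of the 2974 genes whose untreated means spanned at least 2 log2 units, the 5 most like Krt8 were Myh9, the heavy chain of a nonmuscle myosin (correlation 0.995), Krt18, Slc25a24, a mitochondrial carrier (0.979), Clic1 (0.977) and Csnk1e, a casein kinase (0.967). For Krt18 they were Krt8, Myh9 (0.982), Sparc, a matrix-binding glycoprotein (0.979), Slc25a24 (0.976) and Csnk1e (0.973). Myh9 was at 13.36, 13.38 and 12.23 in ESC, 11.84, 12.25 and 11.71 in d2 and 14.44, 14.29 and 14.15 in d6 G+H+, so that it was low in d2 and high on d6 as Krt8 was. Krt19 was followed by Krt42, Prss23, a serine protease (0.972), Vwa5a (0.965), Dsc2, the desmosomal cadherin desmocollin 2 (0.931), and Phlda1 (0.930), and Krt42 by Krt19, Prss23 (0.971), Vwa5a (0.942), Phlda1 and Egr1, an immediate early transcription factor (0.921 for both). Krt7 was followed by Anxa4, an annexin (0.983), Elovl7, a fatty acid elongase, and Retreg1 (0.982 for both), P2rx4, an ATP-gated channel (0.981), and Rcan2 (0.980). Ranked over the 33 arrays in place of the means, Krt18 stayed first for Krt8 and Krt42 first for Krt19, while Elovl7 was at place 88 and Anxa4 at place 14 for Krt7.

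The array measured 48 other keratins, of which 1 was called lower in d2 than in ESC (0.709% of all probes), Krt17, a type I keratin of stratified and regenerating epithelium whose gene is the neighbour of Krt42. Krt17 was at 9.57, 9.68 and 9.98 in ESC and at 6.31, 5.92 and 6.09 in d2, a log2 fold change of -3.63 ± 0.22 (limma adjusted p = 7.17e-13). Unlike Krt42, it did not come back: it was called lower than ESC in all 10 populations, with log2 fold changes of -2.74 to -4.83. In d6 G+H- no array was well above background for Krt17, which was there at least 24.4-fold lower than in ESC. Krt20, an intestinal keratin, was called lower than ESC in d3 G+, d4 G+, d5 G-, d5 Glow, d5 Ghigh and both d6 populations, at least 3.59-fold in d6 G+H+. Krt23 was called higher in d3 G- than in ESC (at least 3.15-fold) and lower in d3 G+ than in d3 G- (at least 3.14-fold). Measured log2 fold changes of these 2 genes, some with a group at background, differed between the sets of slides. They were -2.52 within replicates 1 and 2 and -1.09 in replicate 3 for Krt20 in d6 G+H+, 2.43 and 1.14 for Krt23 in d3 G- against ESC, and -2.77 and -0.96 for Krt23 in d3 G+ against d3 G-. Krt20 lost its call in d3 G+, d4 G+ and d5 G- without ESC replicate 2, among others.

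Further keratins rose on d6. Against ESC, 5 of the 48 were called higher in the G+H+ cells (3.22% of all probes) and 4 in the G+H- cells (2.8%), with a median over the 48 of 0.0886 and 0.0751 log2 units, against -0.0020 and -0.0005 over all 20972 genes. Krt90 was at 4.62, 5.12 and 4.32 in ESC, not well above background on any array, and at 9.72, 9.35 and 8.73 in d6 G+H+, at least 19.8-fold higher (limma adjusted p = 8.87e-11). Krt79 was 4.33-fold higher in d6 G+H+ (log2 fold change 2.12 ± 0.28, limma adjusted p = 2.66e-07), Krt81 3.93-fold, Krt87 at least 5.13-fold and Krt36 at least 2.7-fold. Krt36 lost its call without ESC replicate 3 or d6 G+H+ replicate 2, and in d6 G+H- Krt79 lost its own without ESC replicate 1, ESC replicate 2 or d6 G+H- replicate 1. Krt87 is the neighbour of Krt7 on chromosome 15. Of the 11 keratins of stratified epithelium on a list that includes Krt5 and Krt14, 0 rose in either d6 population and 1, Krt17, was lower. Of all probes, 3.22% were called lower in G+H- and 3.35% in G+H+.

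The genes that anchor keratin to desmosomes, the spot junctions between epithelial cells, were called in part. Of 13, 1 was called lower in d2, where 0.709% of all probes were: Dsp, the desmoplakin that ties keratin filaments to the junction, was at 10.48, 11.41 and 9.32 in ESC and 9.15, 7.91 and 8.86 in d2 (log2 fold change -1.76 ± 0.33, limma adjusted p = 0.000447). This was -2.41 within replicates 1 and 2 and -0.46 in replicate 3, and the call was lost without ESC replicate 2 (-1.26) or d2 replicate 2 (-1.40). Dsp was then 3.38 ± 0.33 higher in d3 G+ than in d2 (limma adjusted p = 1.47e-09) and 2.06 ± 0.33 higher in d6 G+H+ than in ESC (limma adjusted p = 5.3e-06). The d6 value was 1.58 within replicates 1 and 2 and 3.02 in replicate 3. In the same comparison 1 of the 13 was lower (3.35% of all probes), Ppl, the plakin periplakin (-1.78 ± 0.40, limma adjusted p = 0.000583). For Ppl these values were -2.17 and -1.01, and without ESC replicate 2 it was not called (-1.38, limma adjusted p = 0.0132). The list had a median of -0.89 in d2 and -0.06 in d6 G+H+, where the medians over all 20972 genes were 0.02 and -0.0020.

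Genes of epithelial identity were called lower in Gsc-positive cells and none of the 5 members was, a contrast that was not itself tested. In d4 G+ against d4 G-, where 0 of the 5 members were called, 8 of the 16 genes on the epithelial list were called lower and 0 higher, where 0.722% of all probes were called lower, with a median of -1.74 against 0.02 over all genes. Grhl2, a transcription factor of epithelial cells, was at 10.34, 9.99 and 10.37 in d4 G- and 6.78, 7.44 and 7.38 in d4 G+ (log2 fold change -3.03 ± 0.35, limma adjusted p = 5.56e-07). Cldn7, a tight junction claudin, was lower too (-2.42 ± 0.49, limma adjusted p = 0.00165), Rab25, an epithelial small GTPase, likewise (-2.23 ± 0.45, limma adjusted p = 0.00159) and the claudin Cldn6 also (-2.19 ± 0.50, limma adjusted p = 0.0051). Of the 8 calls, those of Grhl2 and Ap1m2 held whichever of the 6 arrays was left out, and the other 6 were lost without d4 G- replicate 3 or d4 G+ replicate 1. In the same sort Krt8 was at 13.53, 13.42 and 13.17 in G- and 14.01, 13.53 and 13.85 in G+. On d5 the mean of Glow and Ghigh had 5 of the 16 lower than G- (0.58% of all probes) and 0 higher, led by Cldn4 (-3.21 ± 0.46, limma adjusted p = 1.46e-05) and Grhl2 (-2.51 ± 0.30, limma adjusted p = 1.06e-06). These 2 calls held whichever of the 9 arrays was left out, and the other 3 were lost without d5 G- replicate 3. On d6, 3 of the 16 were called higher in G+H- than in d5 Ghigh (0.726% of all probes) and 0 lower, Cdh1 (1.97 ± 0.43, limma adjusted p = 0.00291), Spint1 (1.84 ± 0.32, limma adjusted p = 0.00024) and Spint2 (1.51 ± 0.32, limma adjusted p = 0.00208), the last 2 being inhibitors of membrane serine proteases. As for Krt7, Krt19 and Krt42, the step was larger within replicates 1 and 2 than in replicate 3, at 2.51 and 0.88 for Cdh1, 2.28 and 0.98 for Spint1 and 1.77 and 0.98 for Spint2. The Spint1 call held whichever array was left out, while those of Cdh1 and Spint2 were lost without d5 Ghigh replicate 1 (limma adjusted p = 0.0512 and 0.0335), d5 Ghigh replicate 2, d6 G+H- replicate 1 or d6 G+H- replicate 3.

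**Figure D4:**
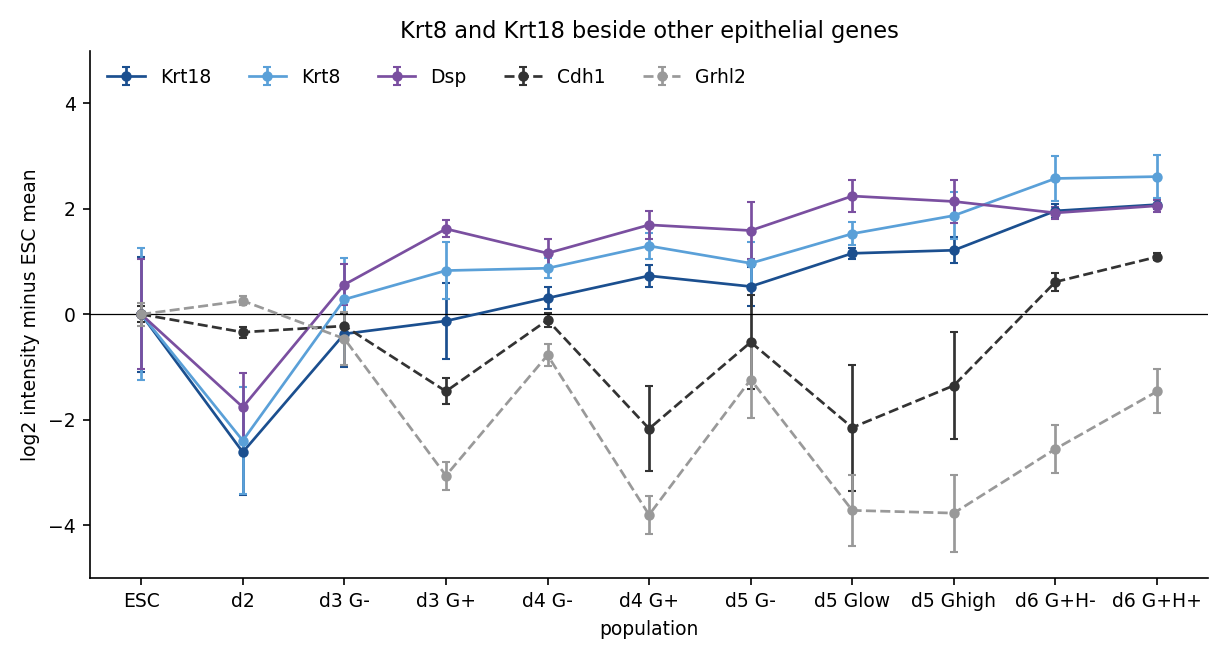
Mean log2 intensity minus the ESC mean for Krt8, Krt18 and Dsp (solid) and for Cdh1 and Grhl2 (dashed) in the 11 untreated populations; bars are 1 SD over 3 arrays. Krt8 and Krt18 are lowest at d2 and reach 2.61 and 2.08 in d6 G+H+, while Grhl2 stays near ESC at d2 and is lower in each Gsc-positive population than in the G- population of the same day.

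Among other intermediate filament genes, Vim, the vimentin of mesenchymal cells, was called higher than ESC in d3 G+ and in every d4 and d5 population (2.35 ± 0.31 in d3 G+, limma adjusted p = 4.59e-07; 2.61 ± 0.31 in d4 G+, limma adjusted p = 5.02e-08) and was not among the genes called on d6, when 0 of the 13 were called higher than ESC in either population and 2 (G+H-, 3.22% of all probes) and 3 (G+H+, 3.35%) were called lower. The neuronal filament genes Ina (-4.66 ± 0.37, limma adjusted p = 4.45e-12), Nefl (-3.33 ± 0.75, limma adjusted p = 0.000681) and Nefm (-1.77 ± 0.45, limma adjusted p = 0.00237) were those lower in d6 G+H+. Nefl was -2.37 within replicates 1 and 2 and -5.26 in replicate 3 and lost its call without d6 G+H+ replicate 3 (limma adjusted p = 0.0158), and Nefm lost its own without ESC replicate 2 or d6 G+H+ replicate 2. In d2, where 0.709% of all probes were called lower than in ESC, Lmna, the nuclear lamin A gene, was the single gene of the list called. It was lower than in ESC (-2.20 ± 0.33, limma adjusted p = 2.44e-05).

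Factors of the AP-1 and ETS families, which are known regulators of simple keratin genes, were lower in part at d2. Of 9, 3 were called lower (0.709% of all probes) and 0 higher than in ESC, with a median of -1.29: Fos (-3.69 ± 0.67, limma adjusted p = 0.000325), Fosl2 (-2.11 ± 0.38, limma adjusted p = 0.000323) and Junb (-1.58 ± 0.28, limma adjusted p = 0.000227). The fall was -4.92 within replicates 1 and 2 and -1.22 in replicate 3 for Fos, and -2.72 and -0.89 for Fosl2, and the Junb call was lost without ESC replicate 2 (-1.46, under the fold threshold). In d3 G+ against d2, 3 were called higher (1.51% of all probes), Fos (3.62 ± 0.67, limma adjusted p = 0.000126), Fosl2 (3.14 ± 0.38, limma adjusted p = 1.35e-07) and Ets1 (2.22 ± 0.28, limma adjusted p = 2.8e-07). In d6 G+H+ against ESC, Jun was the 1 of 9 called, upwards (3.22% of all probes; 2.12 ± 0.33, limma adjusted p = 3.9e-06). Their part in the keratin levels was not tested.

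Simple keratins are made by several cell types, and markers of some of them moved on the same days. In d6 G+H+ against ESC, 3.22% of all probes were called higher and 3.35% lower. Of 8 definitive endoderm markers, 8 were called higher. The log2 of their summed intensity went from 8.91 to 9.26 in ESC to 16.76 to 16.87 in d6 G+H+. Sox17, Cer1, Gsc and Cxcr4 were not well above background on any ESC array. A summed level follows the brightest probes of its list, so the sums of different lists are not comparable. Of 8 visceral endoderm markers 4 were called higher, with summed levels of 12.59 to 12.65 in ESC and 12.99 to 13.50 in d6 G+H+, where Afp was not well above background. Of 9 trophoblast markers 3 were called higher and 1 lower, with summed levels of 14.10 to 14.30 and 14.21 to 15.56, and Cdx2 and Tpbpa were not well above background in d6 G+H+. Of 8 mesoderm markers 2 were called higher, with summed levels of 10.98 to 11.21 and 11.05 to 11.34, and Meox1 was not well above background in d6 G+H+. For 6 markers of stratified epithelium 0 were called, with summed levels of 10.49 to 10.54 and 10.21 to 10.70 and Ivl not well above background in d6 G+H+. For d2 the endoderm lists are of little use, since Sox17, Cer1, Gsc and Cxcr4 of the definitive list and Ttr, Afp, Apoa1 and Hnf4a of the visceral list were not well above background on any ESC array and had no room to fall. Of the trophoblast markers 1, Tead4, was called lower in d2, where 0.709% of all probes were, and Tpbpa was not well above background in ESC. Of 8 pluripotent cell markers 4 were called lower, with summed levels of 16.31 to 17.05 in ESC and 15.81 to 16.04 in d2. The part of these cell types in the keratin values was not tested.

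In d6 cultures Krt19 and Krt42 were higher in both EPZ6438 regimens than in Control. Krt19 was at 11.13, 11.01 and 10.45 in Control, 12.78, 12.996 and 12.84 in ADE_EPZ and 13.37, 12.75 and 13.69 in ES_EPZ. Every array of both EPZ6438 regimens was above every Control array. In ADE_EPZ the log2 fold change was 2.01 ± 0.49 (4.03-fold, limma adjusted p = 0.00511) and in ES_EPZ it was 2.41 ± 0.49 (5.30-fold, limma adjusted p = 0.00679). Krt42 was at 9.20, 9.16 and 8.76 in Control, 10.81, 10.98 and 10.95 in ADE_EPZ and 11.47, 10.61 and 11.76 in ES_EPZ. It too had no overlap, with 1.87 ± 0.44 in ADE_EPZ (3.66-fold, limma adjusted p = 0.00356) and 2.24 ± 0.44 in ES_EPZ (4.72-fold, limma adjusted p = 0.00517). Limma thus called 2 of the 5 members higher in ADE_EPZ, where 0.97% of all probes were called higher, and the same 2 in ES_EPZ, where 0.199% were, and the regimens share the Control arrays.

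These calls were close to the threshold. Each of the 3 slides of this series held 1 array of every regimen, and within slides Krt19 was 1.86, 1.83 and 2.34 higher in ADE_EPZ and 1.62, 2.68 and 2.92 higher in ES_EPZ. The Control array of a slide had another replicate number than its EPZ6438 arrays, so differences within slides do not match arrays by replicate number. With 1 array left out, the difference in ADE_EPZ stayed between 1.80 and 2.14 for Krt19 and between 1.73 and 1.95 for Krt42, but the limma adjusted p was 0.0119 to 0.0382 and 0.0102 to 0.0252, so that neither call held in any of the 6 fits. In ES_EPZ both calls held in 1 of 6 such fits, without ES_EPZ replicate 2, and the limma adjusted p reached 0.093 for Krt19 and 0.0835 for Krt42 without ES_EPZ replicate 3. Fitted on the compared groups alone, neither was called in ES_EPZ (limma adjusted p = 0.0438 for both), while both kept their call in ADE_EPZ. When arrays were scaled to their 75th percentile instead, Krt19 was not called in either regimen and Krt42 was called in ADE_EPZ alone.

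Krt7 had a difference of similar size that was not called. It was at 8.29, 8.39 and 7.50 in Control, 10.19, 10.47 and 9.91 in ADE_EPZ and 10.28, 10.05 and 10.10 in ES_EPZ, with no overlap between Control and either regimen. The log2 fold change was 2.13 ± 0.63 in ADE_EPZ (limma adjusted p = 0.0236) and 2.08 ± 0.63 in ES_EPZ (limma adjusted p = 0.0822). Fitted on the compared groups alone, the ADE_EPZ difference was called (limma adjusted p = 0.00184). Krt8 was at 13.35, 13.92 and 13.43 in Control, 14.60, 14.50 and 14.79 in ADE_EPZ and 14.86, 14.52 and 15.09 in ES_EPZ, a difference of 1.06 ± 0.44 (limma adjusted p = 0.137) and 1.26 ± 0.44 (limma adjusted p = 0.149). Krt18 had the smallest difference, from 16.54, 16.59 and 16.29 in Control to 16.98, 16.83 and 16.98 in ADE_EPZ and 17.09, 16.93 and 17.07 in ES_EPZ, a difference of 0.46 ± 0.36 (95% interval -0.28 to 1.201) and 0.56 ± 0.36 (-0.18 to 1.301). The Krt18 probe was already near the top of the scale, with 200 to 317 probes brighter on the Control arrays. Whether this limited its difference was not tested. All 5 members were higher in all 9 pairs of an EPZ6438 array and a Control array, in each regimen.

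The period in which EPZ6438 was given made no detectable difference to the keratins. In ADE_EPZ against ES_EPZ limma called 0 of the 5 members (0.0647% of all probes in either direction, 36 probes, and 55 with the paired replicate numbers as a block), with 0 at an unadjusted p under 0.05. The intervals of the difference were -1.39 to 0.60 for Krt19, -1.26 to 0.52 for Krt42, -1.24 to 1.32 for Krt7, -1.09 to 0.70 for Krt8 and -0.84 to 0.64 for Krt18, so that a difference of 1 log2 unit lies within most of them. The Control cultures and the untreated d6 populations were on separate slides, read in separate scans, and the labels name a sort for the latter alone, so their levels cannot be told apart from those differences and were not compared.

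**Figure D5:**
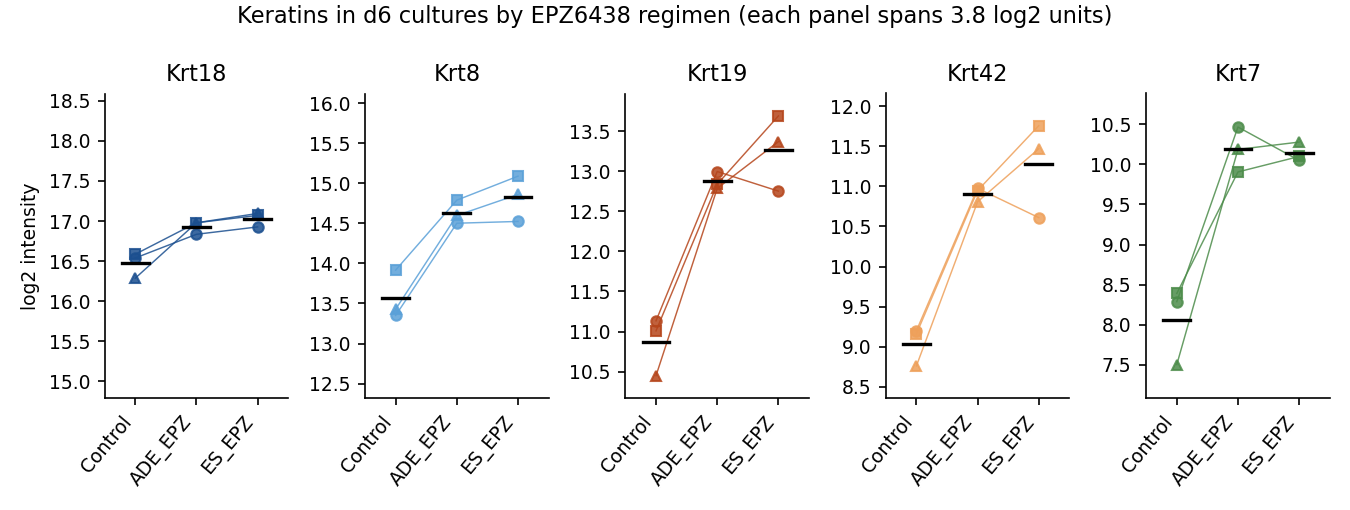
Log2 intensity of each keratin in Control, ADE_EPZ and ES_EPZ d6 cultures. Points joined by a line are arrays of 1 slide, whose Control has another replicate number, and black bars are group means. In every panel the 3 Control points lie below the 6 points of the EPZ6438 regimens, and the step is largest for Krt19, Krt42 and Krt7.

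Some other genes of the epithelium rose with EPZ6438 as well. Outside them, Nefh, a neuronal gene among the 13 other intermediate filament genes, was called higher in ADE_EPZ (0.97% of all probes; log2 fold change 3.16). Nefh was 4.14, 0.98 and 4.37 higher within slides, and its call held whichever array was left out. Of the 48 other keratins, 2 were called in each regimen, both upwards, where 0.97% of all probes were called higher in ADE_EPZ and 0.199% in ES_EPZ: Krt90 was at 6.05, 6.41 and 5.89 in Control, 9.14, 8.83 and 8.74 in ADE_EPZ and 9.03, 8.23 and 9.61 in ES_EPZ (log2 fold change 2.79 ± 0.42, limma adjusted p = 2.23e-05, and 2.84 ± 0.42, limma adjusted p = 0.000208), and Krt79 was 1.81 ± 0.28 higher in ADE_EPZ (limma adjusted p = 4.16e-05) and 1.58 ± 0.28 higher in ES_EPZ (limma adjusted p = 0.00231). Of the 16 epithelial identity genes 5 were called higher in ADE_EPZ (0.97% of all probes) and 0 lower, with a median of 1.36 against -0.01 over all genes. St14, a membrane serine protease, was 2.17 ± 0.38 higher (limma adjusted p = 0.000157), Grhl2 2.14 ± 0.35 (limma adjusted p = 7.22e-05), Cdh1 2.12 ± 0.43 (limma adjusted p = 0.000865) and Spint1 2.07 ± 0.32 (limma adjusted p = 3.92e-05). These 4 calls held whichever array was left out. In ES_EPZ 1 of the 16 was called (0.199% of all probes), Spint1 (1.68 ± 0.32, limma adjusted p = 0.00443), with a median of 0.96. Of the 13 linker genes 1 was called in each regimen, the plakin Eppk1, epiplakin, which binds keratin filaments: it was at 8.42, 7.45 and 7.49 in Control, 11.15, 9.80 and 11.30 in ADE_EPZ and 11.28, 10.34 and 11.76 in ES_EPZ (2.96 ± 0.63, limma adjusted p = 0.00147, and 3.33 ± 0.63, limma adjusted p = 0.00399). Within slides Eppk1 was 1.38, 3.85 and 3.65 higher in ADE_EPZ and 1.91, 4.31 and 3.78 higher in ES_EPZ. Dsp, of the same list, was not called but was lower on every EPZ6438 array than on any Control array. It was at 12.57, 12.43 and 12.80 in Control, 11.69, 11.97 and 11.88 in ADE_EPZ and 12.275, 12.34 and 12.13 in ES_EPZ. The summed level of the linker list was 14.07 to 14.095 in Control, 14.097 to 14.14 in ADE_EPZ and 14.215 to 14.45 in ES_EPZ. Krt90 kept its calls whichever array was left out. Without replicate 3 of the EPZ6438 group the calls of Krt79 and Eppk1 were lost in ADE_EPZ (limma adjusted p = 0.00125 with a log2 fold change of 1.47, and 0.0145), and those of Krt79, Eppk1 and Spint1 in ES_EPZ (limma adjusted p = 0.0702, 0.0695 and 0.0811). Without 1 other array the Eppk1 call was also lost in 2 fits in ADE_EPZ, and in ES_EPZ the calls of Krt79, Eppk1 and Spint1 were lost in 2, 3 and 3 fits.

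Few genes of the cell type lists were called in the EPZ6438 regimens. The summed levels of the definitive endoderm, visceral endoderm and trophoblast lists nevertheless lay above Control in both regimens without overlap. Those of the mesoderm list lay below Control without overlap. Of the 8 definitive endoderm markers 1, Hhex, was called higher in ADE_EPZ (0.97% of all probes) and 0 in ES_EPZ (0.199%), and their summed level was 14.70 to 15.18 in Control, 16.04 to 16.53 in ADE_EPZ and 15.80 to 16.42 in ES_EPZ. The visceral endoderm list, with 1 of 8 (Rhox5) called higher in ADE_EPZ and 0 in ES_EPZ, had summed levels of 12.37 to 12.66, 13.47 to 13.89 and 12.94 to 13.13, and the trophoblast list, with 0 of 9 called in either, had 12.998 to 13.52, 13.72 to 14.31 and 13.56 to 13.97, with Tpbpa not well above background in either EPZ6438 regimen. The pluripotent list, with 1 of 8 (Zfp42) called higher in ADE_EPZ and 0 in ES_EPZ, had 10.82 to 11.005, 11.48 to 12.32 and 10.97 to 12.08. The mesoderm list, with 1 of 8 (Meox1) called lower in ADE_EPZ (0.406% of all probes) and 0 in ES_EPZ, had 12.42 to 12.68, 11.80 to 12.11 and 12.06 to 12.31. Stratified epithelium markers, with 0 of 6 called, had 10.30 to 10.37, 10.27 to 10.60 and 10.41 to 10.51, so that Control and ADE_EPZ overlapped. The Rhox5 and Zfp42 calls were each lost in 4 of 6 fits with 1 array left out. By the study's FACS analysis, the G+H+ population on d6 was significantly larger in both EPZ6438 regimens than in the control. The part of a changed mix of cells in the keratin differences was not tested.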

How the data were processed

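Total RNA of 42 samples was hybridised to Agilent one-colour mouse arrays. The scanner files hold intensity values per spot as deposited, and the value table holds log2 intensities that the authors made from them with limma, by normexp background correction (offset 10) and quantile normalisation. The array design is on mm9, and the value table could be rebuilt from the scanner files at a correlation of at least 0.999979 per array. The deposited log2 values were used for all results, and the scanner files for the flags of signal well above background and for alternatives. Control spots were left out, and spots of a probe were averaged, which gave 55681 probes. RefSeq accessions named 27656 probes, with 21865 of 23171 accessions matched in the GRCm38.p6 table, and the brightest probe by mean over the 42 arrays stood for a gene.

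Groups were compared in limma 3.58.1 (R 4.3.3), with 1 mean per group over all arrays, moderated by eBayes and adjusted by Benjamini-Hochberg over all probes of a comparison. Steps were tested on simulated data. P-values measure the spread between the 3 separate experiments of a group, pooled for each probe over all 14 groups. The spread of the compared groups can differ from it. For Krt7 in ADE_EPZ against Control the SE was 0.63 in the fit over all arrays and 0.25 on the compared groups alone. The main fit takes arrays of different groups as independent, and the number of arrays limits the precision. Where a probe was not well above background on any array of a group, the fold is a bound, set against the lowest signal among probes well above background. Alternatives for the values were recomputation from the scanner files, a normexp offset of 50, no background correction, quantile normalisation within each series, and 75th percentile scaling of the processed signal. Further alternatives were a filter on dim probes, the mean of a gene's probes, slide as a fixed or random block, replicate number as a block, a fit on the compared groups alone, and leaving out each array. Slide sets, the d5 to d3 interaction, and leaving out arrays and blocking for the gene lists were added after seeing the data.

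Replicate numbers were taken as a pairing where, over all probes, every same-numbered pair of 2 groups deviated together from the group means (correlation over 0.1), which held in 12 of 25 comparisons. The median correlation of untreated arrays was 0.232 with the same number (127 of 165 over 0.1) and -0.195 with different numbers (76 of 330).

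The members and the gene lists were chosen with earlier results of these data known. Named were the 5 members, other keratins called (at most 6 per comparison), at most 4 called genes of each list per comparison by size, and the 5 genes most correlated with each member among those with a range of at least 2. Genes named for their level beside these, Myh9 among them, come from those sets. Protein features were not analysed here. Whether probes of related keratins share RNA was not tested.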

Additional observations from a re-analysis of the deposited data

How the results depend on the processing

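The log2 fold changes of the 5 members in 28 comparisons, 140 values, kept their direction and their side of the threshold in 1512 of 1540 recomputations under other settings, with 16 calls lost, 6 gained and 6 signs turned. Some settings could not turn a sign. The mean of a gene's probes, the filter on dim probes, the compared groups alone and the replicate block leave each log2 fold change unchanged. They can move only its p-value, so this share is not a measure of stable directions. Fitted on the compared groups alone, 0 members were called in d2 against ESC and in d3 G- against d2 (4 each otherwise), 0 in d5 Ghigh against ESC (1 otherwise), 2 in d6 G+H- against ESC (3 otherwise, Krt18 being lost) and 0 in ES_EPZ (2 otherwise), where fewer arrays estimate the spread. In ADE_EPZ that fit kept the calls of Krt19 and Krt42 and added that of Krt7 (limma adjusted p = 0.00184). With 75th percentile scaling 1 member was called in ADE_EPZ and 0 in ES_EPZ, and with slide as a fixed block 1 in ES_EPZ. In d5 Glow against ESC 1 member, Krt8, was called with no background correction, with the filter on dim probes, with the mean of all probes of a gene, with slide as a random block and with replicate number as a block, against 0 otherwise. The replicate block (Krt8 in d5 Glow against ESC, limma adjusted p = 0.00627) changed no other call of a member. In the 12 comparisons whose numbers paired the arrays, among them the sorts on d3, d4, within the d5 Gsc-positive cells and on d6, it changed no call of a member. In d5 Glow against ESC the numbers did not pair them. The signs that turned belonged to values that were not called: with 75th percentile scaling Krt42 in d3 G- against ESC (-0.0086), and Krt8 (-0.0138) and Krt18 (-0.0136) in d6 G+H+ against d6 G+H-, and with slide as a fixed block Krt18 in d5 Ghigh against d5 Glow (-0.0066), Krt7 in d6 G+H+ against d6 G+H- (-0.0374) and Krt7 in d5 G- against d4 G- (-0.139). The cause was not tested.

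With 1 array left out, 828 of 915 values were the same in this sense, 28 calls were lost, 7 gained and 52 signs turned. The count of called members ranged from 0 to 1 in d4 G+ against ESC, from 0 to 2 in d5 Glow and in d5 Ghigh against ESC, from 1 to 3 in d6 G+H- against ESC, from 2 to 3 in d6 G+H+ against ESC, from 0 to 3 in d6 G+H- against d5 Ghigh, from 0 to 0 in ADE_EPZ and from 0 to 2 in ES_EPZ. The 31 results whose sign turned were all without a call, and the lowest and highest log2 fold changes of each follow. The range was Krt8 -0.40 to 0.82, Krt18 -0.97 to 0.0928, Krt19 -0.10 to 0.68 and Krt42 -0.34 to 0.39 in d3 G- against ESC. It was Krt18 -0.73 to 0.34 and Krt42 -0.063 to 0.74 in d3 G+ against ESC, Krt18 -0.29 to 0.77 in d4 G- against ESC, Krt18 -0.0713 to 0.99 in d5 G- against ESC, Krt19 -0.42 to 0.47 and Krt42 -0.57 to 0.22 in d5 Glow against ESC, Krt7 -0.25 to 1.27 in d5 Ghigh against ESC. Between sorted populations it was Krt18 -0.11 to 0.61, Krt19 -0.0323 to 0.62 and Krt42 -0.12 to 0.72 in d3 G+ against d3 G-, Krt7 -0.91 to 0.10 in d4 G+ against d4 G-, Krt18 -0.0752 to 0.17 and Krt42 -0.76 to 0.14 in d5 Ghigh against d5 Glow, Krt8 -0.21 to 0.27, Krt19 -0.14 to 0.48 and Krt42 -0.32 to 0.21 in d6 G+H+ against d6 G+H-. Elsewhere it was Krt7 -0.10 to 0.18 in ADE_EPZ against ES_EPZ, Krt7 -0.23 to 0.78 and Krt19 -0.032 to 0.62 in d4 G+ against d3 G+, Krt7 -0.26 to 0.30 in d4 G- against d3 G-, Krt7 -0.66 to 0.88 in d5 Glow against d4 G+, Krt7 -0.23 to 0.36 and Krt8 -0.0934 to 0.31 in d5 G- against d4 G-. For the tests of a difference between days it was Krt7 -0.28 to 0.73, Krt8 -0.53 to 0.25 and Krt18 -0.18 to 0.53 for d4 against d3 and Krt8 -0.0436 to 0.74 for d5 Ghigh against d3.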
